A study of Homo sapiens with 3 samples.

Results

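Antisense transcripts are RNAs read from the strand opposite to that of another gene. Some start beside the promoter of a protein-coding gene and run away from it, others lie within the gene or meet its far end, and individual examples are known to silence, recruit proteins to or stabilise the gene they overlap. Most are kept at low levels because nuclear surveillance, including the RNA exosome and its adaptors, degrades them. The antisense genes described here were chosen from a table of 29960 genes counted in 5637 cells, an established human bladder cancer line. A row was taken when its gene type was antisense, it lay on an autosome and its reads in the 3 labelled libraries came to at least 100. This rule took 213 of the 2720 autosomal antisense rows, or 7.83%. The choice used the sum of reads, so the levels of the members are a description. That sum holds 1 parental and 2 resistant libraries, so a gene that is high only in the resistant group reaches 100 reads more easily than one that is high only in the parental group, and counts of directions over the members are given as a description too.

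The libraries were Parental 1, from the line as grown without drug selection, and Resistant 1 and Resistant 2, from its gemcitabine-resistant derivative. Gemcitabine is a cytidine analogue used in chemotherapy. The derivative was made by repeated exposure to gemcitabine with recovery between exposures, all cells were untreated at harvest, and per the series design each library was a separate clone, so that clonal differences and resistance cannot be told apart with 1 parental and 2 resistant clones. mRNA was selected with poly-T beads, which leaves antisense RNAs without a poly(A) tail poorly covered. The labels describe an unstranded and a strand-specific library without saying which was made, so reads of a member and of the gene it overlaps may not be told apart where their exons coincide.

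Between 14475531 and 17461941 reads were counted on genes per library. The summed level of 11 urothelial carcinoma markers lay between 7688 and 10310 CPM (counts scaled by edgeR's TMM factors to a common library size), against 0.568 to 1.22 CPM for 4 leukocyte markers, 0.426 to 2.02 CPM for 3 endothelial markers and 4.48 to 7.47 CPM for 3 muscle markers. The 6 fibroblast markers summed to 147 to 173 CPM, nearly all of it COL1A1 and COL1A2, with LUM at 0 reads in every library. The urothelial sum does not show single markers. KRT19 read 4311 CPM in Parental 1, 3593 in Resistant 1 and 4790 in Resistant 2. In the same order KRT5 read 272, 9.79 and 13.8 CPM and EPCAM 285, 338 and 291 CPM.

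The 213 members were thinly read. They held 75.1% of all reads on autosomal antisense rows but only 0.169% of the reads of Parental 1, 0.187% of Resistant 1 and 0.191% of Resistant 2. The sum of reads over the 3 libraries ranged from 100 to 8852 with a median of 208, and 12 members had over 1000 reads. The median level of a member was 4.31 CPM. A further 370 autosomal antisense rows had no read in any of the 3 libraries. Of 198 members found in a current gene name table, 88 now carry a name ending in AS (antisense) and 25 a name ending in DT (divergent transcript). Of the 200 members present in GENCODE 29, a later annotation than the table's, 180 are still antisense genes and 6 are protein-coding. LINC00094, now BRD3OS, and MMP24-AS1, now MMP24OS, were renamed as opposite-strand genes, and both are among these 6 protein-coding genes.

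The most abundant member was RN7SL1, an RNA component of the signal recognition particle, with 2096 reads in Parental 1, 2512 in Resistant 1 and 4244 in Resistant 2. It covers 300 bases inside RPS29 (hg19 chr14:50053297-50053596) and belongs to a family of near-identical copies, so its count is uncertain. TUG1, a widely expressed long noncoding RNA, had 1298, 1319 and 1088 reads in the same order. FGD5-AS1 had 1041, 1061 and 1155 reads. The resistant libraries lay within 1 log2 unit of the parental library for each of these genes. SNHG7, a host of small nucleolar RNAs, had 755, 705 and 1159 reads, and LINC00094, opposite the bromodomain gene BRD3, had 476, 718 and 670 reads. The partners of FGD5-AS1 and SNHG7, the coding genes with the longest overlap, were almost silent, since FGD5 had 0, 1 and 2 reads and FAM69B 4, 11 and 14 reads. FGD5-AS1 also overlaps NR2C2, a nuclear receptor gene, over 841 bases, and NR2C2 had 187, 290 and 283 reads. SETD5-AS1 (now THUMPD3-AS1) overlaps 3 coding genes and is described with them further on.

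**Figure D1:**
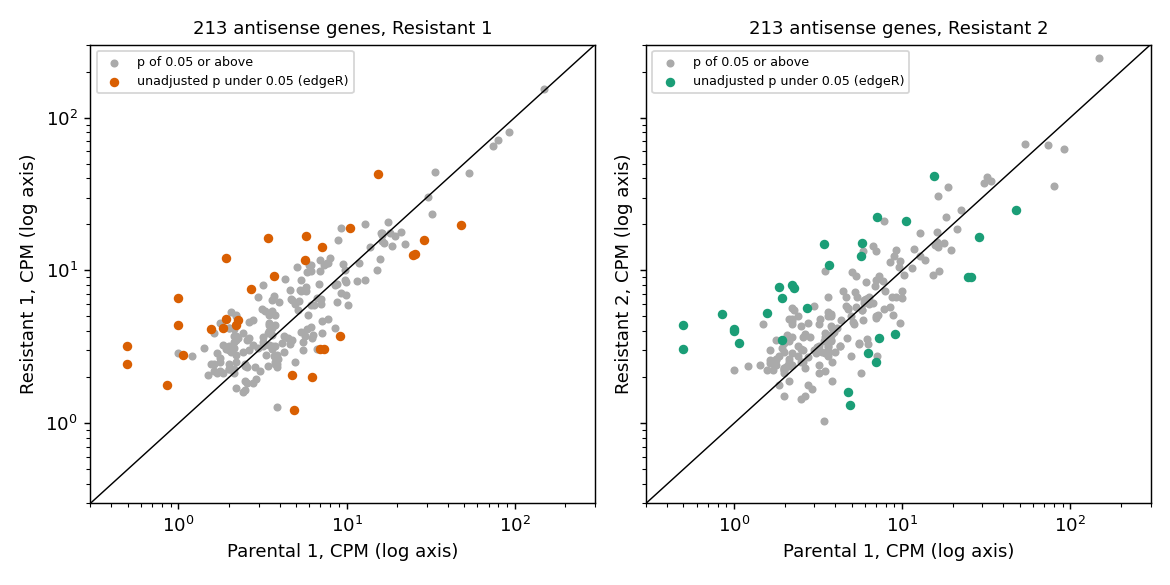
Level of the 213 antisense genes in CPM, with Parental 1 on the horizontal and Resistant 1 (left) or Resistant 2 (right) on the vertical axis, both logarithmic, 1 point per gene. The 30 coloured points are genes with an unadjusted edgeR p under 0.05, of which 20 lie above and 10 below the line of equal level.

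At the edge of the rule, AP001631.9 had 14, 47 and 39 reads and CTD-3074O7.5 had 39, 30 and 31 reads, which came to 100 each. Just outside it, RP11-378J18.3 came to 99 reads (14, 47 and 38) and SERTAD4-AS1 to 98 (16, 27 and 55).

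Of the 213 members, 171 overlapped a protein-coding gene by at least 1 base, 36 of them more than 1 gene, and 42 overlapped none. The gene with the longest overlap was taken as the partner, and of genes with equal overlap the one with more reads. In 20 cases the partner itself had fewer than 100 reads, which left 151 pairs over 147 distinct partners. The members that overlapped a gene fell into 54 divergent (opposite strands, overlapping at their 5′ ends), 39 convergent (overlapping at their 3′ ends), 61 inside the partner, 12 that contain the partner and 5 on the same strand as the partner. Divergent overlaps were short, with a median of 691 bases, against 4961 bases for convergent ones.

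In the 151 pairs, members were mostly weaker than the gene they overlapped. These pairs leave out the 20 members whose partner had fewer than 100 reads, so weak partners are missing from the ratios below. Per kilobase of gene length, the median ratio of member to partner was 0.235 in Parental 1, 0.253 in Resistant 1 and 0.229 in Resistant 2. In 20 pairs the member was above its partner in all 3 libraries. The ratio differed between geometries: the median was 0.261, 0.303 and 0.307 for divergent members and 0.184, 0.158 and 0.160 for members inside their partner, while members that contain their partner were near its level at 0.819, 0.919 and 1.06. The last class holds 10 pairs. The per-length level of a member followed that of its partner only loosely, with a Spearman correlation across the 151 pairs between 0.151 and 0.257 in the 3 libraries, and these points share their libraries and 4 partners serve more than 1 member.

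**Figure D2:**
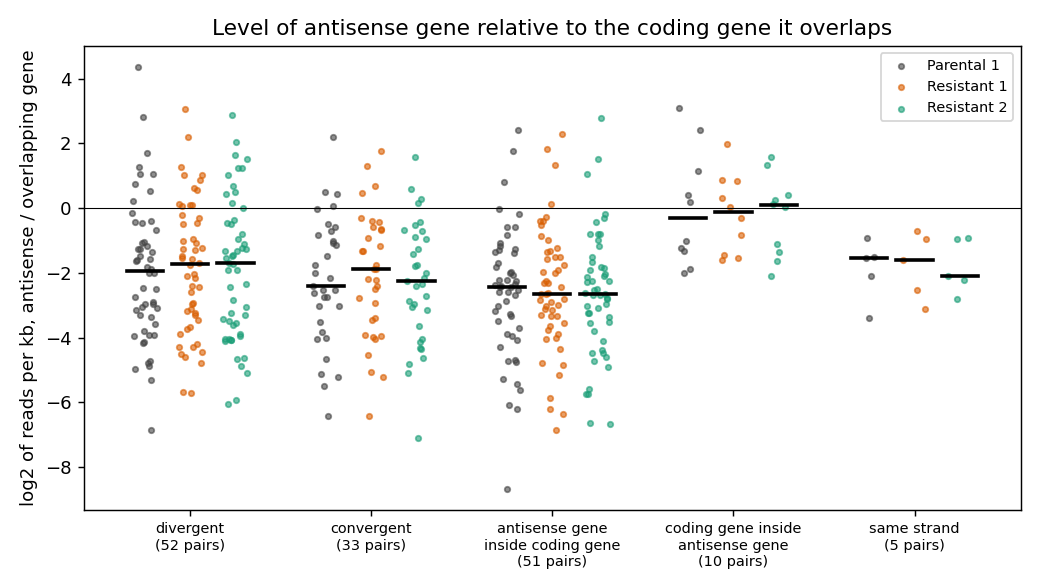
Log2 of reads per kilobase of the antisense gene over that of the overlapping coding gene, by geometry and library, with 1 point per pair and a bar at the median; 0 marks an equal level. Most pairs lie below 0, and only the 10 pairs in which the coding gene lies inside the antisense gene centre near it, with medians of 0.819, 0.919 and 1.06 as plain ratios.

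By definition, divergent genes overlap at their 5′ ends and convergent genes at their 3′ ends. Shorter distances between starts in divergent pairs therefore largely follow from the classes and are given as a description. Where a gene had several listed starts, the nearest ones of the pair were taken. In RefSeq annotation (GRCh38.p14), which held starts for both genes of 29 divergent pairs, the median distance between the starts was 178 bases, with 18 pairs within 300 and 24 within 1000 bases. For 13 convergent pairs the median distance was 42545 bases. Of the 213 members, 104 had a promoter window in RefSeq. The GC box, the motif GGGCGG or its reverse complement CCGCCC read on both strands, occurred in the 250 bases before the start of 55.8% of these members, 68.9% of 119 partners and 42.3% of all 27305 genes with a window. By class the share was 44.1% of 34 divergent members and 45% of 20 members inside their partner, both near that of all genes. It was 84.2% of 19 convergent members and 57.1% of 21 members without an overlapping gene. Unlike members and partners, the set of all genes was not chosen by reads. The letters TATAAA or their reverse complement TTTATA occurred in 4.81% of members, 2.52% of partners and 11.1% of all genes. Median GC content was 66.4% in members, 68% in partners and 58% in all genes. A match of letters is a description of the window and not a bound site.

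In the comparison of resistant with parental cells, the question was whether antisense genes change with acquired gemcitabine resistance and whether they do so together with the gene they overlap. No member passed an edgeR adjusted p under 0.05 over 15643 genes tested, of which 0.876% passed. At an unadjusted edgeR p under 0.05 there were 30 members of 213, against 9.7% of all genes tested; 20 were higher in the resistant libraries, where the background is 4.85%, and 10 were lower, where it is also 4.85%. With DESeq2 1 member passed the adjusted threshold, RP11-284F21.7, against 1.68% of its tested genes, and 16 members had an unadjusted DESeq2 p under 0.05 (background 4.21%). The adjusted edgeR count was 1 member with RLE scaling (background 1.5%) and 4 without a filter on low counts (background 2.02%). The test had 1 residual degree of freedom, and the parental library was assumed to vary like the resistant ones. All 213 members passed the filter on low counts, as the rule of 100 reads places them above it.

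Directions over the members were counted as a description, since the rule weighs the resistant libraries more. Both resistant libraries lay above the parental library for 102 members (47.9%, against 35.2% of all genes tested) and below it for 59 members (27.7%, against 34.5%). The median log2 ratio of CPM + 1 was 0.13 over members and 0.01 over all genes tested. The members' median was 0.15 in Resistant 1 and 0.14 in Resistant 2. It was 0.12 in the authors' group means, which also hold clones not analysed one by one here. The median size of the difference, regardless of sign, was 0.37 in members and 0.30 in all genes, while the gap between both resistant clones was 0.28 and 0.31. A difference of at least 2-fold on CPM + 1 in both resistant libraries occurred in 9 members upward (background 2.01%) and 2 downward (background 2.06%).

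The values differed between chromosomes. All 6 members on chromosome 5 were higher in both resistant libraries, with a median log2 ratio of CPM + 1 of 0.78, while the median over 532 coding genes of that chromosome was -0.33. Chromosome 20 had a median of 0.65 over 7 members and -0.27 over 310 coding genes. On chromosome 12 both were lower, at -0.65 over 8 members and -0.39 over 590 coding genes. On chromosome 4 both were higher, at 1.06 over 2 members and 0.37 over 447 coding genes. Chromosome 17 carried the most members, 25, with 15 higher and 4 lower in both resistant libraries and a median of 0.27 against 0.11 for its coding genes. These chromosomes were picked after their values were seen.

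RP11-284F21.7 (now BCAN-AS2, ENSG00000229953, hg19 chr1:156616299-156631216, minus strand) had the smallest p of the members. It had 48 reads in Parental 1, 265 in Resistant 1 and 258 in Resistant 2, which are 3.41, 16.2 and 14.9 CPM. The edgeR log2 fold change was 2.19 ± 0.48 (SE), with an edgeR adjusted p of 0.079 (0.000992 unadjusted), and DESeq2 gave an adjusted p of 0.0148. The gene it runs towards is BCAN, which encodes brevican, a proteoglycan of brain extracellular matrix, and BCAN read in the same direction with 207, 750 and 1057 reads and an edgeR log2 fold change of 1.86 ± 0.40 (adjusted p = 0.079). The authors' means were 56.9 for the parental and 167 for the resistant group, a smaller ratio than in the labelled libraries. Exons of the member coincide with BCAN exons over 46.7% of its exonic length in GENCODE 29, so part of these reads could be counted for either gene.

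CTBP1-AS1 (now CTBP1-DT, ENSG00000196810, hg19 chr4:1243088-1282079, plus strand) is a divergent member with far more reads. It had 218, 700 and 718 reads, or 15.5, 42.8 and 41.4 CPM, with an edgeR log2 fold change of 1.44 ± 0.38 (adjusted p = 0.166), and the authors' means were 253 for the parental and 517 for the resistant group. CTBP1, a transcriptional corepressor gene read the other way, had 2536, 4965 and 5824 reads and an edgeR log2 fold change of 0.83 ± 0.37 (adjusted p = 0.515). Both resistant libraries were above the parental one for both genes. They were also above it for MAEA, the nearest coding gene without overlap, with log2 ratios of CPM + 1 of 0.59 and 0.33. The median over 447 coding genes of chromosome 4 was 0.37. Whether the rise is particular to this pair was not tested. The 250 bases before the start of CTBP1-AS1 in RefSeq hold 38 CpG and 6 GC boxes, shown in capitals. This stretch lies between the nearest listed starts of both genes, which are 310 bases apart. The whole gene intervals overlap by 654 bases in hg19. The stretch is printed because it lies between the nearest starts of a pair whose log2 fold changes had the same sign. In GRCh38.p14 it is chr4:1249190-1249439, plus strand, and none of it is annotated as an untranslated region.
CTBP1-AS1: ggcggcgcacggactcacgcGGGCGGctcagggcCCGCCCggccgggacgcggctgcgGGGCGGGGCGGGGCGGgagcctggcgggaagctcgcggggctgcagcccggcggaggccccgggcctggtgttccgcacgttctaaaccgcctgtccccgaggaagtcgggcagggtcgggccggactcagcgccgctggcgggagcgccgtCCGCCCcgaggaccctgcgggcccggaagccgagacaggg

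HOXA11-AS (ENSG00000240990, hg19 chr7:27224137-27228912, plus strand) lies head to head with HOXA11, a homeobox gene of limb and reproductive tract development. It had 14, 108 and 70 reads, or 0.994, 6.61 and 4.04 CPM, with an edgeR log2 fold change of 2.41 ± 0.67 (adjusted p = 0.196). HOXA11 had 39, 135 and 120 reads and an edgeR log2 fold change of 1.45 ± 0.53 (adjusted p = 0.381). The authors' means for HOXA11-AS were 47.0 in the parental and 73.0 in the resistant group, so the difference over all clones was smaller than with Parental 1 alone. The 175 bases between the starts of both genes hold 5 CpG and no GC box, unlike the CTBP1 stretch (GRCh38.p14 chr7:27185233-27185407, plus strand), and are shown for that contrast.
HOXA11-AS: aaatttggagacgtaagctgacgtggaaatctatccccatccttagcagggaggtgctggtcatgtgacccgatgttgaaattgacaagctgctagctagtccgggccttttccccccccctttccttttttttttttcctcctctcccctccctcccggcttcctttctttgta

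RP11-332H18.4 (now TBX2-AS1, hg19 chr17:59470817-59488916, minus strand) contains TBX2, a T-box transcriptional repressor gene, and was the member whose partner passed the test. The member had 7, 52 and 53 reads and an edgeR log2 fold change of 2.63 ± 0.76 (adjusted p = 0.216). TBX2 rose from 37 reads in Parental 1 to 309 and 313 in the resistant libraries, with an edgeR log2 fold change of 2.81 ± 0.48 (adjusted p = 0.029). The per-length level of the member was 1.15, 1.02 and 1.03 times that of TBX2, and none of its exonic bases coincide with a TBX2 exon in GENCODE 29.

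RP11-59D5__B.2 (now SCAT8) lies inside EYS, a gene of retinal photoreceptors, and had 7, 40 and 76 reads with an edgeR log2 fold change of 2.76 ± 0.80 (adjusted p = 0.220). EYS had 7, 25 and 20 reads. CTD-2228K2.7 (now SLC9A3-AS1) lies inside SLC9A3, which encodes a sodium-proton exchanger of epithelia. It had 100, 234 and 386 reads (edgeR log2 fold change 1.36 ± 0.47, adjusted p = 0.343), and SLC9A3 had 95, 267 and 447 reads, so that Resistant 2 was the highest library for both genes. ITGB2-AS1 had 26, 69 and 135 reads, and ITGB2, which encodes the shared beta chain of leukocyte integrins, had 256, 577 and 1235 reads. The 4 leukocyte markers summed to at most 1.22 CPM while ITGB2 read 18.2, 35.3 and 71.2 CPM; the part of other cells in this value was not tested. The authors' means of ITGB2-AS1 were 47.4 and 64.0, and those of SLC9A3-AS1 130 and 205, again closer together than in the labelled libraries. RP11-295G20.2, with no overlapping coding gene, had 81, 273 and 261 reads (edgeR log2 fold change 1.46 ± 0.45, adjusted p = 0.263) and authors' means of 125 and 246.

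Of the 10 members that were lower at an unadjusted p under 0.05, RP11-66B24.4 (now ALDH1A3-AS1, hg19 chr15:101433945-101459488, minus strand) was the most abundant. It had 671, 324 and 432 reads, or 47.7, 19.8 and 24.9 CPM, with an edgeR log2 fold change of -1.09 ± 0.36 (adjusted p = 0.305). ALDH1A3, a retinaldehyde dehydrogenase that makes retinoic acid, had 13457, 6222 and 10661 reads, and for both genes Resistant 1 was the lowest library. The member held 0.0609, 0.0636 and 0.0495 times the per-length level of ALDH1A3. GHRLOS, opposite the ghrelin gene GHRL, had 69, 20 and 23 reads (edgeR log2 fold change -1.94 ± 0.59, adjusted p = 0.259), beside 42, 23 and 14 reads of GHRL. The authors' means of GHRLOS were 55.5 and 25.3, a smaller difference than in the labelled libraries. AP001053.11, now AATBC, had 360, 209 and 158 reads (edgeR log2 fold change -1.22 ± 0.40, adjusted p = 0.305). C1RL-AS1 had 349, 207 and 158 reads (edgeR log2 fold change -1.19 ± 0.40, adjusted p = 0.329), whereas C1RL, a complement protease relative, had 302, 279 and 283. ZFAS1, a host of small nucleolar RNAs, had 406, 257 and 287 reads (edgeR log2 fold change -0.84 ± 0.36, adjusted p = 0.493). In each of these 5 members both resistant libraries lay below the parental one. Other than TBX2-AS1, HOXA11-AS, ITGB2-AS1 and the members chosen by level, pair difference or list, the members with small p-values were named after their values were seen.

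**Figure D3:**
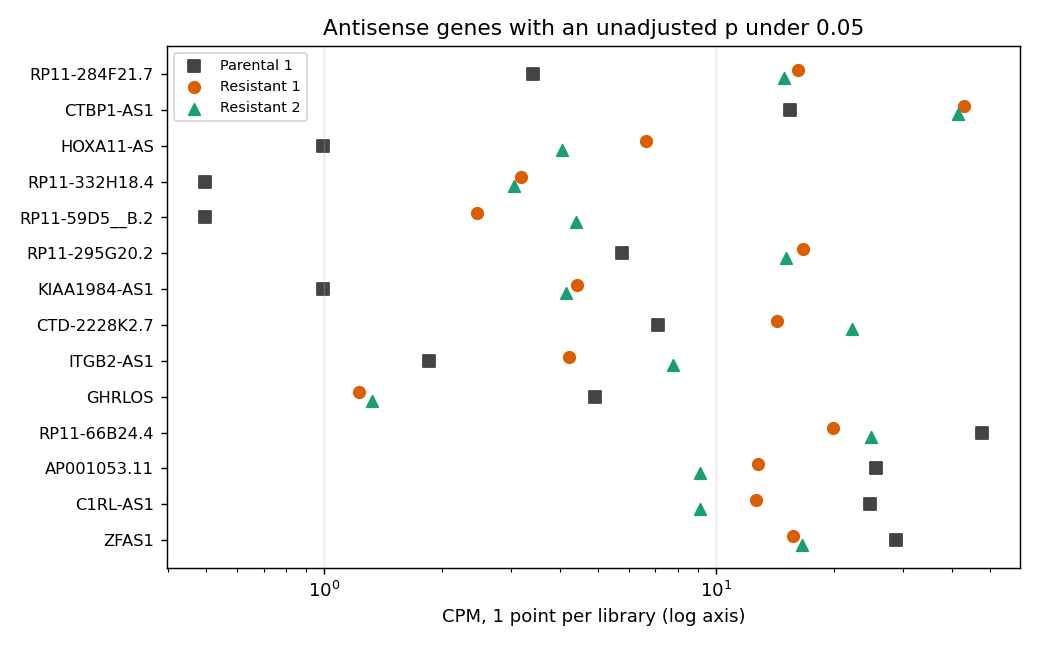
Level in CPM on a logarithmic axis of 14 antisense genes with an unadjusted edgeR p under 0.05, 1 point per library. The resistant libraries lie to the right of Parental 1 in the upper 9 genes and to the left in the lower 5, with no overlap; the lone parental point carries no spread.

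The exons of both genes coincide in part in several of these pairs. For 5 of them 30 bases of such a stretch are printed on the strand of the antisense gene, because a read from either gene there has the same letters on opposite strands. Coordinates are of GRCh38. The stretch of RP11-284F21.7 (chr1:156646963-156646992, minus) and that of HOXA11-AS (chr7:27184781-27184810, plus) face coding bases of BCAN and HOXA11. Those of RP11-66B24.4 (chr15:100915326-100915355, minus), CTD-2228K2.7 (chr5:479787-479816, plus) and ITGB2-AS1 (chr21:44928749-44928778, plus) face bases of their partners' exons that are not coding. The longest shared exon stretch was 354, 578, 1280, 329 and 220 bases in the order named.
RP11-284F21.7: cccgcgccaccagcacctctgcctcccggc
HOXA11-AS: ctgcgggggtggggtggtggtagacgttgg
RP11-66B24.4: atgcactaaccaaaactttctcactgtgaa
CTD-2228K2.7: gccagagcctgctgcagccccgacccggca
ITGB2-AS1: ttcatggtttctgcccaaacggagccacgt

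Across the 151 pairs, the log2 ratios of antisense genes followed those of the coding genes they overlap, and less so those of the nearest coding gene without overlap. The Pearson correlation of the log2 ratios of CPM + 1 was 0.61 with the partner (Spearman 0.50) and 0.29 with the neighbour (Spearman 0.28), which lay a median of 12498 bases away. The pairs share their libraries, the correlation of partner and neighbour was 0.41, and the difference between the correlations was not tested. Within each resistant clone the values were 0.56 and 0.22 for Resistant 1 and 0.64 and 0.33 for Resistant 2. The difference between both resistant clones, which does not involve the parental library, also went along within pairs, with a correlation of 0.57 for the partner and 0.20 for the neighbour. Member and partner had the same sign in both resistant libraries in 75 pairs, opposite signs in 24 and no constant relation in 52. With the neighbour these counts were 65, 35 and 51. Among 54 pairs whose member differed by at least 0.5, 44 partners and 37 neighbours had the sign of the member.

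**Figure D4:**
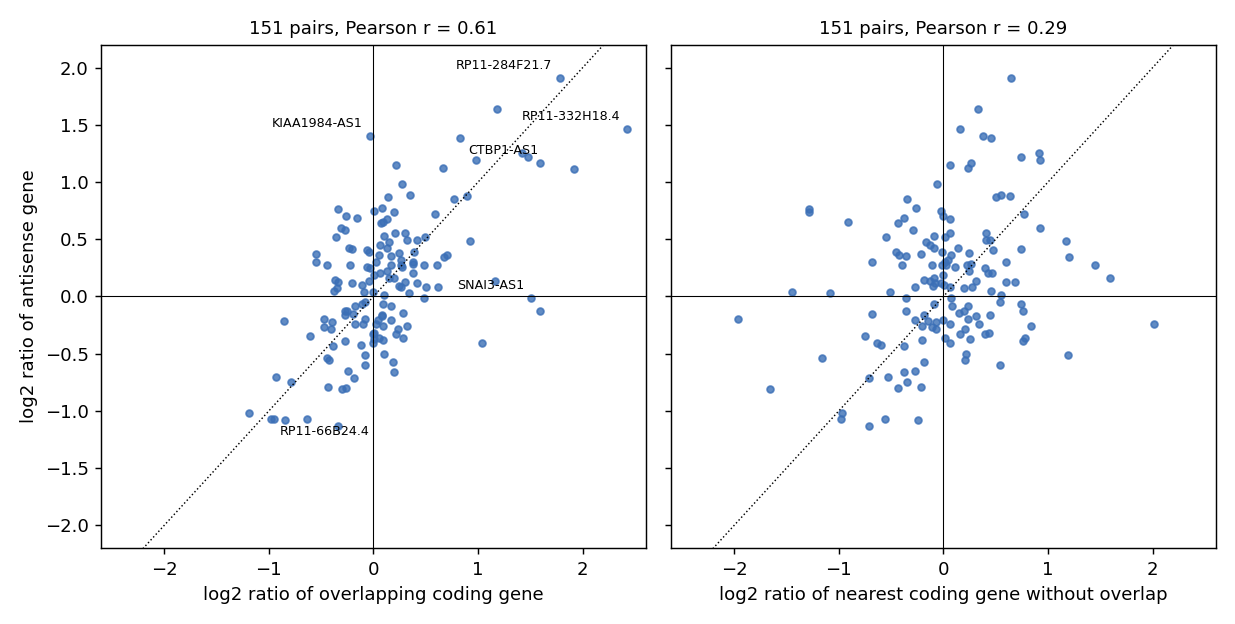
Log2 ratio of resistant to parental libraries (CPM + 1, mean over both resistant libraries) of the antisense gene against that of the coding gene it overlaps (left) and of the nearest coding gene without overlap (right), 151 pairs each, with a dotted line of equality. The points gather along the line on the left (Pearson r = 0.61) more than on the right (r = 0.29).

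By geometry, the correlation with the partner was 0.53 over 52 divergent pairs, 0.64 over 33 convergent pairs and 0.66 over 51 pairs with the member inside the partner. It was also seen where the exons of member and partner do not coincide. In 32 pairs with no shared exonic base in GENCODE 29 the correlation was 0.64 with the partner and 0.18 with the neighbour. In 64 pairs with less than 20% of the member's exonic bases shared it was 0.47 and 0.31, and in 40 pairs with 20% or more it was 0.82 and 0.50. These classes leave out same-strand pairs and pairs without exons of both genes in GENCODE 29. How reads of shared exons were counted is not known for any of these classes, and their part in the correlations was not tested. The strand setting is not known for the class without shared exons either. The part of partner reads from outside its exons was not tested.

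A difference between the resistant clones was seen around SETD5-AS1 on chromosome 3. The member had 1127, 1174 and 615 reads, or 80.1, 71.9 and 35.5 CPM, so that Resistant 2 alone was low. THUMPD3, a putative RNA methyltransferase gene, had 2792, 4131 and 1924 reads, and SETD5, a chromatin gene, had 11590, 12506 and 7425. Resistant 2 was the lowest library for all 3 genes. SRGAP3, which the member also overlaps, had 467, 226 and 330 reads and was lowest in Resistant 1. RP11-661A12.9 had 263, 237 and 614 reads, and its partner NAPRT1, of NAD synthesis, had 2949, 3012 and 5213, both highest in Resistant 2. CTB-55O6.12 had 31, 28 and 78 reads, and LPHN1, an adhesion receptor gene, had 355, 291 and 1213. In AC004447.2 (120, 69 and 198 reads) and SUGP2 (1470, 1114 and 2154 reads) the parental library lay between the resistant ones. RP11-382A18.1 went the other way from these, with 27, 197 and 61 reads and the highest level in Resistant 1. These members were picked after their gap between clones was seen.

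Some pairs came apart. CTD-2020K17.4 had 34, 26 and 48 reads while FMNL1, a formin gene of the actin cytoskeleton, had 206, 555 and 1077, for which the edgeR log2 fold change was 1.71 ± 0.46 (adjusted p = 0.183). A second member at the other end of FMNL1, CTD-2020K17.1 (now FMNL1-DT), had 12, 29 and 90 reads and so went with FMNL1. SNAI3-AS1 had 72, 90 and 80 reads while SNAI3, of the Snail family of repressors, had 7, 60 and 50 (log2 ratio of CPM + 1 of 1.64 and 1.37, edgeR adjusted p = 0.204). RP11-228B15.4 had 144, 97 and 161 reads inside ENG, the endoglin gene, which had 483, 1069 and 1353 (edgeR log2 fold change 1.06 ± 0.37, adjusted p = 0.350). Endoglin is also made by endothelial cells, whose 3 markers summed to at most 2.02 CPM while ENG read 34.3 to 78.0 CPM. KIAA1984-AS1 (now CCDC183-AS1) went the other way: it had 14, 72 and 72 reads (edgeR log2 fold change 2.10 ± 0.65, adjusted p = 0.271) inside RABL6, a Rab-like GTPase gene, which stayed at 669, 602 and 706 CPM. The authors' means of KIAA1984-AS1 were 26.6 and 58.3, a smaller ratio than in the labelled libraries. It overlaps KIAA1984 over the same 4922 bases, and RABL6 was taken as the partner only because it had more reads. KIAA1984 had 47, 94 and 129 reads, with log2 ratios of CPM + 1 of 0.64 and 0.96. The member thus came apart from RABL6 but had the direction of KIAA1984. In 4 pairs the log2 ratios of member and partner differed by at least 1 in both resistant libraries. The fifth, TBX2-AS1 with TBX2, differed on the scale of CPM + 1, while their edgeR log2 fold changes, 2.63 and 2.81, lay within 1 SE of each other.

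**Figure D5:**
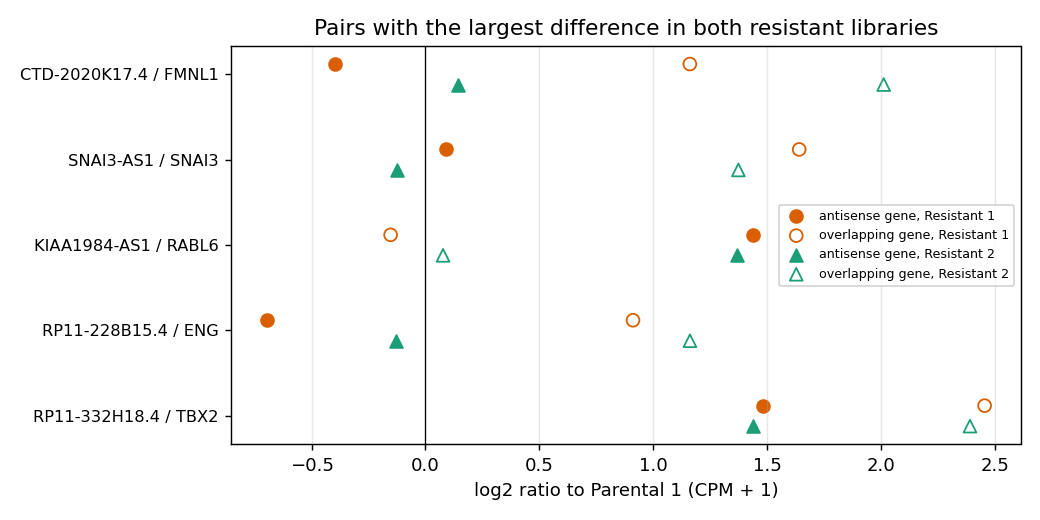
Log2 ratio to Parental 1 (CPM + 1) in each resistant library for 5 pairs, with filled symbols for the antisense gene and open symbols for the coding gene it overlaps. In 3 pairs the open symbols lie near or above 1 and the filled ones near or below 0, in KIAA1984-AS1 with RABL6 the order is turned, and in RP11-332H18.4 with TBX2 both lie above 1.

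The HOX clusters hold several antisense genes. HOTAIRM1 had 298, 290 and 326 reads, HOXA-AS2 234, 247 and 173, and HOXA-AS3 82, 68 and 82. HOXB-AS3 had 314, 243 and 433 reads, HOXD-AS1 (now HAGLR) 430, 491 and 649, and HOXD-AS2 90, 97 and 117. The size of the edgeR log2 fold change was at most 0.41 in these 6 members, and it was 2.41 for HOXA11-AS. The resistant clones lay apart in HOXB-AS3 and HOXA-AS2, where Resistant 2 minus Resistant 1 was 0.71 and -0.55 on the log2 scale of CPM + 1. HOXD1, beside HAGLR, had 10, 28 and 76 reads, and HAGLR stood 20.6, 8.40 and 4.09 times above it per length. Other antisense genes of developmental loci had values above the parental library in both clones: FOXD2-AS1 had 82, 159 and 234 reads (edgeR log2 fold change 0.99 ± 0.47, adjusted p = 0.557) and LBX2-AS1 31, 82 and 83 (1.15 ± 0.57, adjusted p = 0.573). DLX6-AS1 had 98, 163 and 151 reads against 181, 134 and 151 for DLX6. KCNQ1OT1, the imprinted antisense RNA of KCNQ1, had 87, 70 and 62 reads, whereas KCNQ1 itself had 1, 0 and 0. MCM3AP-AS1 had 100, 76 and 48 reads. PCBP1-AS1 had 181, 142 and 215 reads and KTN1-AS1 49, 74 and 64. SLC25A25-AS1 (RP11-395P17.3 in the table) had 453, 384 and 709. Of 61 listed antisense RNAs of known name, 53 were in the table and 17 were members. None of the 17 passed the edgeR adjusted threshold (0.876% of all genes did) or that of DESeq2 (1.68%). At an unadjusted edgeR p under 0.05, 3 were higher and 1 lower, against 4.85% of all genes tested in each direction. The median log2 ratio of CPM + 1 of the 17 was -0.05 against 0.01 over all genes tested.

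Genes that clear antisense RNA did not pass the test either. Of 39 genes of the exosome and its adaptors, the cap-binding complex, 3′ processing, exonucleases and RNase H, 0 passed the edgeR adjusted threshold and 0 that of DESeq2, 1 was lower at an unadjusted p under 0.05 (4.85% of all genes were), 15 were lower and 6 higher in both resistant libraries (34.5% and 35.2% of all genes), and the median log2 ratio of CPM + 1 was -0.07 (0.01 over all genes tested). The one with the small p was EXOSC3, a cap subunit of the exosome, with 405, 222 and 241 reads (edgeR log2 fold change -1.07 ± 0.37, adjusted p = 0.346). Of 17 tested enzymes and sensors of paired-strand RNA, 0 passed by either tool (0.876% of all genes with edgeR and 1.68% with DESeq2), 10 were lower and 2 higher in both resistant libraries (34.5% and 35.2% of all genes), and the median was -0.17. DDX58, the RIG-I sensor, had 513, 309 and 260 reads (edgeR log2 fold change -1.10 ± 0.36, adjusted p = 0.311) and was the only one of them with an unadjusted p under 0.05.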

How the data were processed

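RNA of 3 labelled libraries was used, 1 of parental and 2 of gemcitabine-resistant 5637 cells. The deposited table lists raw read counts per gene and library, which the authors made without normalization; hg19 and CASAVA 1.8 are named in the submitters' processing notes, while aligner, counter and strand setting are not given in the sources used here. The signal columns hold the authors' mean of normalized counts per group and are quoted as the authors' means, with no SD. The deposited FPKM values (3 columns of the labelled libraries) and 6 columns of libraries without a label here were not used. Columns with the authors' log2 fold change for each gene, and its p-value raw and adjusted, for the resistant against the parental group were not used either.

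Counts were scaled by TMM (factors 0.974, 1.03 and 0.995) and tested with edgeR's quasi-likelihood test (edgeR 4.0.16, R 4.3.3) after filterByExpr, with Benjamini-Hochberg adjustment over 15643 genes and 1 residual degree of freedom. Log2 ratios use CPM plus a pseudocount of 1, as the mean over both resistant libraries. Total counts were 14475531 (Parental 1), 15836788 (Resistant 1) and 17461941 (Resistant 2). Partners were the protein-coding genes with the longest overlap in hg19; promoter windows and start sites came from RefSeq (GRCh38.p14) and exons from GENCODE 29 (GRCh38), matched by name or identifier, and coordinates were never mixed. Counts for the same comparison were also simulated from the mean level of each gene in these libraries, with a common dispersion of 0.079 for every gene. There, 94 of 98 genes changed 8-fold and 51 of 95 changed 4-fold were recovered among 15552 genes, with 12 false calls. The changed genes were drawn from all levels and real genes differ in dispersion. These shares therefore do not give the recovery for members, whose median level was 4.31 CPM.

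The members and gene lists were chosen with earlier results of these data known. Named genes were the 6 most abundant members, the 5 pairs that differed most in both resistant libraries, members on a list of known antisense RNAs, those at the threshold of 100 reads, and the 3 most abundant pairs of each geometry; others are said to be picked after their values were seen. Alternatives covered scaling, the filter on low counts, DESeq2 (1.42.0), the pseudocount, the read minimum, the choice of partner, the authors' means and leaving out each resistant library. The edgeR p-values rest on the spread between the 2 resistant libraries and on a trend of spread over all genes tested. That trend weighed as 8.94 prior degrees of freedom, against 1 residual degree from the gene itself. They cover these libraries only. Calculations used Python 3.11.15, numpy 2.4.6, pandas 2.3.3 and matplotlib 3.10.9.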

Additional observations from a re-analysis of the deposited data

How the results depend on the processing

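The count of members past the adjusted threshold was 0 with edgeR and TMM, 1 with RLE scaling, 4 without a filter on low counts and 1 with DESeq2, while the calls over all genes went from 137 to 235, 534 and 248; the cause was not tested. RP11-284F21.7 was called under each of these 3 alternatives, and RP11-59D5__B.2, HOXA11-AS and RP11-332H18.4 only without a filter. At an unadjusted p under 0.05 DESeq2 gave 16 members in place of 30. The median log2 ratio of the members, 0.13, became 0.15 with a pseudocount of 0.25, 0.10 with one of 4, 0.12 with a read minimum of 50 and 0.12 in the authors' means, and lay between 0.14 and 0.15 when either resistant library was left out. The correlation of members with partners, 0.61, was 0.50 as Spearman's, 0.67 for read sums of at least 200, and 0.56 to 0.64 without either resistant library. The per-length level relative to the partner, 0.235, was 0.200 with the partner of most reads, 0.292 for read sums of at least 200, and 0.232 to 0.244 without either resistant library. SLC25A25-AS1 (RP11-395P17.3), at a log2 fold change of 0.00084, turned to -0.0025 with RLE scaling and -0.0077 without a filter, and was -0.72 in the authors' means and -0.45 without Resistant 2. Of 294 alternative values for 49 named members, 268 stayed on their side of the threshold or, where untested, within 1 SE of the main value, but beside SLC25A25-AS1's turns under RLE scaling and without a filter, 14 values in 12 members changed sign in the authors' means or without a resistant library, where the log2 fold change was at most 0.52 in size. Without a resistant library no residual degree of freedom is left, so calls could not be tested. No paired analysis was made, because the libraries were separate clones and a shared replicate number does not make a parental and a resistant clone a pair. Depth limits members near 100 reads, whose ratios rest on few reads per library.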

Other observations

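Below 100 reads, 446 autosomal antisense rows were tested. None passed an adjusted p under 0.05 with edgeR or DESeq2, and 18 had an unadjusted edgeR p under 0.05, 12 of them higher and 6 lower in the resistant libraries, against 9.7% of all genes tested and 4.85% in each direction. UNC5B-AS1, opposite a netrin receptor gene, had 46 reads in Parental 1, 9 in Resistant 1 and 5 in Resistant 2, with an edgeR log2 fold change of -2.94 ± 0.75 (SE, adjusted p = 0.144). RP11-34A14.3 had 42, 5 and 8 reads in the same order (edgeR log2 fold change -2.93 ± 0.75, adjusted p = 0.147). In the other direction, RP11-519G16.3 had 2, 34 and 27 reads (edgeR log2 fold change 3.61 ± 1.03, adjusted p = 0.216) and RP11-635N19.1 had 4, 40 and 35 reads (edgeR log2 fold change 2.94 ± 0.88, adjusted p = 0.243). In these 4 rows the resistant libraries lay on 1 side of the parental one. They were chosen after their values were seen, as those with the smallest p.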
